A study of Mus musculus with 20 samples.

Results

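The replication-dependent histone genes were taken as every gene symbol of the deposited count table that begins with Hist1h to Hist4h followed by the histone type. The pattern matched 69 of the 38784 symbols: 6 linker histone H1 genes, 19 H2A, 19 H2B, 12 H3 and 13 H4 genes. All 69 matched a RefSeq entry through an older symbol (Hist1h1c is now H1f2), and RefSeq marks 2 of them, Hist1h2al and Hist3h2bb-ps, as pseudogenes. The pattern itself used no measured value, but it was chosen with earlier results of these data known.

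FVB/N mice, 6 to 8 weeks old, gave the livers, which were studied after lipid nanoparticle delivery of siRNA into the tail vein at 0.5 mg/kg, with 1 injection in 5 days. The siRNA was directed against Eif3m, which encodes a subunit of translation initiation factor eIF3, or was a scrambled luciferase sequence as the control. Livers were taken at day 9 (3 animals per siRNA) or day 13 (2 animals per siRNA), and each of the 10 animals gave an RNA library and a ribosome footprint library, so 20 libraries fell into 8 groups. Whole liver was ground, so hepatocytes and the other liver cells were measured together, and in such bulk samples fewer cells of a type and less RNA per cell cannot be told apart. The day 9 RNA libraries were made with KAPA mRNA capture, which takes RNA by its poly(A) tail. The day 13 RNA libraries were made with a kit labelled Neoprep, for which the labels state no selection step, and the footprint libraries of both days with the ART-seq kit.

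Replication-dependent histone messages are the metazoan mRNAs that end in a conserved stem-loop in place of a poly(A) tail. The stem-loop is bound by SLBP, which acts in the 3′ end cleavage, export, translation and decay of these messages, and their level rises in S phase, when new chromatin is packed. A minority of these genes can also give polyadenylated messages, mainly in cells that have left the cell cycle, as most hepatocytes of an adult liver have. H2A, H2B, H3 and H4 form the core of the nucleosome and H1 binds the linker DNA between nucleosomes.

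Library totals, in units of 1000000 counts, were 4.50 to 7.69 in footprints at day 9, 1.64 to 6.52 in footprints at day 13, 27.4 to 39.02 in RNA at day 9 and 4.96 to 26.4 in RNA at day 13. Levels are given as CPM, counts per 1000000 of the library total after TMM scaling. The targeted gene matched the labels: Eif3m RNA was at 73.8 to 75.8 CPM in day 9 controls and 7.26 to 8.27 CPM after Eif3m siRNA, and at 241 to 340 and 15.3 to 20.3 CPM at day 13. Hepatocyte markers were abundant in every group, and their summed footprint level was lower after Eif3m siRNA (120129 to 142843 CPM at day 9 and 128088 to 159561 at day 13) than in controls (181428 to 213942 and 249090 to 253006). Most of each sum was Alb, which averaged 152410 CPM in day 9 controls and 96340 CPM after Eif3m siRNA. At day 13 Alb averaged 210242 and 107028 CPM. Of the 8 hepatocyte markers, 3 were called lower in footprints at each day, and 0 were called higher at day 9 and 1 at day 13. Of the members, 23 stayed under 1 CPM in every library, 17 passed the filter on low counts in RNA, 39 passed it in footprints and 26 passed it in neither. Histone genes are near-identical copies, and 67.5% of the nonzero member values were not whole numbers (tolerance 0.01), against 44.3% over all genes, each lying on a multiple of a sixth. Such values arise when a read is divided among several copies. Hist1h2bq and Hist1h2br were equal in 15 of 19 libraries with counts, Hist2h2aa1 and Hist2h2aa2 in 16 of 17 and Hist2h3c1 and Hist2h3c2 in 16 of 17. Values of single genes are therefore less certain than sums over a type.

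Promoter sequence was available for 62 members in RefSeq (build GRCm38.p6), and is shown for the 5 H1 genes tested in footprints, of which 4 were called at day 13, and for an H2B and an H4 gene called at both days. Each line gives the 150 bases upstream of the annotated start, 5′ to 3′ on the gene's strand, so that no transcribed base is included. The windows lie at chr13:23763518-23763667 on the plus strand (Hist1h1a), chr13:21780626-21780775 on the minus strand (Hist1h1b), chr13:23738657-23738806 on the plus strand (Hist1h1c), chr13:23554882-23555031 on the plus strand (Hist1h1d), chr13:23622559-23622708 on the minus strand (Hist1h1e), chr3:96269550-96269699 on the plus strand (Hist2h2bb) and chr13:23581418-23581567 on the plus strand (Hist1h4d). Capitals mark exact matches, on either strand, to the H1 box AAACACA, the CCAAT box CCAAT, the TATA box TATAAA and the octamer ATTTGCAT.
Hist1h1a: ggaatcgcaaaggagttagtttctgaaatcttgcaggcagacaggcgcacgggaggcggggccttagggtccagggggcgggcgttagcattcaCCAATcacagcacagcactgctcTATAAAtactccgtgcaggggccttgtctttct
Hist1h1b: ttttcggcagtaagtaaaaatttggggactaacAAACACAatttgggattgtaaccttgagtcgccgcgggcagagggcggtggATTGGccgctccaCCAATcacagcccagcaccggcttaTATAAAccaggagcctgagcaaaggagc
Hist1h1c: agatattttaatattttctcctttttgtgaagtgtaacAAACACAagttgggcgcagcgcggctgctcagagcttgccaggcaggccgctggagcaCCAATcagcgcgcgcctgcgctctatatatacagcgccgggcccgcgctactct
Hist1h1d: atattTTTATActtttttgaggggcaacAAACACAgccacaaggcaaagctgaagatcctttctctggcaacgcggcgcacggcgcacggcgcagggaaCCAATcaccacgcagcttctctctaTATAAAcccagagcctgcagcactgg
Hist1h1e: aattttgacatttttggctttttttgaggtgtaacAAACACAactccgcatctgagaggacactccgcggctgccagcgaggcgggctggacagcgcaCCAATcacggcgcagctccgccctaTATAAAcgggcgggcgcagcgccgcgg
Hist2h2bb: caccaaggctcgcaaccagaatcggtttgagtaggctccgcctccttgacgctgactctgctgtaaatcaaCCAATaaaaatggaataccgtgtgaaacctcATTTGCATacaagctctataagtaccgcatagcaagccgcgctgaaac
Hist1h4d: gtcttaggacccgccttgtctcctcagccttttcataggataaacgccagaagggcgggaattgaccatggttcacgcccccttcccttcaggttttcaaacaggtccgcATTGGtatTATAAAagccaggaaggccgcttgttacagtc

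Most H1 promoters share an order of motifs. In the printed windows of Hist1h1b, Hist1h1c, Hist1h1d and Hist1h1e an H1 box stands upstream of a CCAAT box, and the printed window of Hist1h1a holds no H1 box. Over 250 bases upstream, 5 of 6 H1 promoters held the H1 box, against 6.25% of all 32851 mouse promoters. All 6 H1, all 18 H2A and all 17 H2B promoters held a CCAAT box, as did 8 of 10 H3 and 3 of 12 H4 promoters, against 33.8% of all promoters. The octamer was found in 7 of 18 H2A and 7 of 17 H2B promoters and in no H1, H3 or H4 promoter, against 1.601% of all promoters. A TATA box stood in 46.0% of member promoters and 12.4% of all. These letter matches describe the windows only.

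The first comparison set footprints against RNA in livers given control siRNA. In day 9 control livers the 69 members together took 449, 486 and 496 CPM of the footprint libraries and 59.9, 56.5 and 60.0 CPM of the RNA libraries. Their footprint over RNA ratio was therefore 8.13 ± 0.572 (SD, n = 3 animals). The excess was uneven by type. The summed H4 ratio was 84.1 ± 6.88, the H1 ratio 20.8 ± 1.04, the H3 ratio 3.72 ± 1.16, the H2A ratio 1.54 ± 0.188 and the H2B ratio 1.496 ± 0.252 (SD, n = 3 each). No animal's H4 or H1 ratio came near those of the core types H2A and H2B, whose animals lay between 1.27 and 1.77. The plot of summed levels shows these sums for every library.

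**Figure D1:**
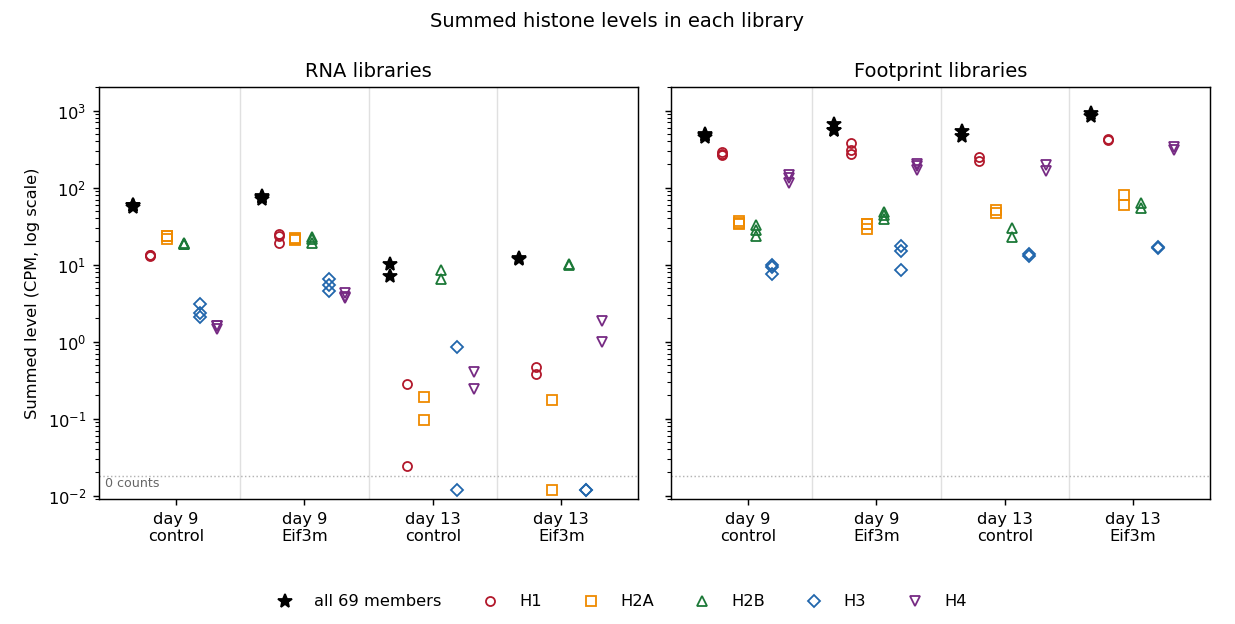
Summed CPM (log scale) of all 69 members and of each histone type in every RNA library (left) and footprint library (right), by day and siRNA; each symbol is 1 library, and symbols under the dotted line had 0 counts. RNA sums of H1, H2A and H3 lie far lower at day 13 than at day 9, while the footprint sums differ far less between the days.

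Gene by gene, 50 members had more than 3 counts in either assay of the pooled day 9 controls, and 19 had 3 or fewer in both and got no ratio. Where the RNA count was 0, a floor of 3 counts over the group gave a lower bound. Of the 50, 31 had a ratio above 16-fold, 12 lay between 1 and 16 and 7 lay under 1. Over all 19535 genes with more than 3 counts in either assay, 2.59% had a ratio above 16-fold. The median ratio was 26.3 over the members and 0.967 over all genes. In edgeR's joint test of footprints against RNA, 34 of the 40 members that passed the filter on low counts were called higher in footprints and 0 lower (25.8% and 32.8% of all 14236 genes tested). Members were more often past the filter in footprints (39) than in RNA (17), so this count is a description.

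Among the linker histones, Hist1h1c, Hist1h1d and Hist1h1e gave most footprint counts. Hist1h1e, a main somatic H1, had 618, 701 and 692 footprint counts and 25.3, 30.3 and 21.3 RNA counts in the 3 day 9 control animals. Its pooled ratio was 127 (95% counting interval 101 to 161). Hist1h1d had a ratio of 55.3 (46.2 to 67.2), from 1420 footprint counts and 124.5 RNA counts over the 3 animals. Hist1h1c, the H1.2 gene, was the H1 gene with a clear RNA signal, 312, 426 and 373 counts, against 629, 734 and 659 footprint counts, and its ratio was 8.82 (8.19 to 9.498). These 3 genes had footprint counts within the range 1420 to 2022 and ratios from 8.82 to 127. Hist1h1a and Hist1h1b, with 50.3 and 155 pooled footprint counts, had 2 and 1 RNA counts, which gave ratios of 122 (31.8 to 1028) and 750 (133 to 29858). Hist1h1t, the testis H1, was at or under 3 counts in both assays. Intervals and floors cover counting error only.

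All 13 H4 genes encode the most conserved core histone, and each had more footprints than RNA. Hist1h4d had the most H4 footprints, at 32.7, 40.9 and 39.2 CPM (218, 298 and 262 counts), and 1.33, 1.83 and 2.00 RNA counts. Its ratio was 730 (322 to 2329). Hist2h4 had a ratio of 379 (161 to 1174) and Hist4h4 one of 722 (198 to 5990), the latter on 2 RNA counts. Hist1h4c had 252 pooled footprint counts and 0 RNA counts, so its footprints were at least 407-fold higher. Hist1h4f (0.833 RNA counts) had a ratio of 924 (136 to 30624), Hist1h4k one of 53.3 (18.9 to 303), Hist1h4j one of 42.6 (21.6 to 97.6) and Hist1h4h one of 34.4 (24.4 to 48.7). Hist1h4i was the H4 gene nearest parity, at 7.32 (5.51 to 9.87), with 22.8, 33.3 and 25.3 RNA counts. The 12 other H4 genes lay between 34.4 and 1213, the highest being Hist1h4a on 0.5 RNA counts.

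Most H2A, H2B and H3 genes with a ratio also lay above 1, but the genes that carry most of their type's RNA lay near it. Hist1h2bc alone had 522, 684 and 570 RNA counts, 17.5 to 18.3 CPM of the 18.3 to 19.2 CPM summed over the 19 H2B genes. Its footprints, at 15.2, 21.8 and 13.4 CPM, gave a ratio of 0.954 (0.849 to 1.07), and edgeR's joint test did not call a difference (log2 −0.07 ± 0.19 SE, adjusted p = 0.78). Hist2h2aa1 and its twin Hist2h2aa2 each had a ratio of 1.57 (1.35 to 1.82) from 222, 274 and 249 RNA counts. Hist1h2al, which RefSeq lists as a pseudogene, had 0.776 (0.626 to 0.960). Hist2h3c1 and Hist2h3c2 had 0.789 (0.425 to 1.37) each. By contrast Hist2h2bb had 105 footprint and 8 RNA counts, a ratio of 63.8 (31.1 to 151), Hist1h2bg had 23.3 (8.70 to 78.1), and Hist1h2bq and Hist1h2br had 24.5 (6.31 to 123) each. Hist1h2bb and Hist1h3e had 0 RNA counts and footprints at least 46.6-fold and 59.5-fold higher. The scatter of footprints against RNA shows the near-parity genes inside the cloud of all genes.

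**Figure D2:**
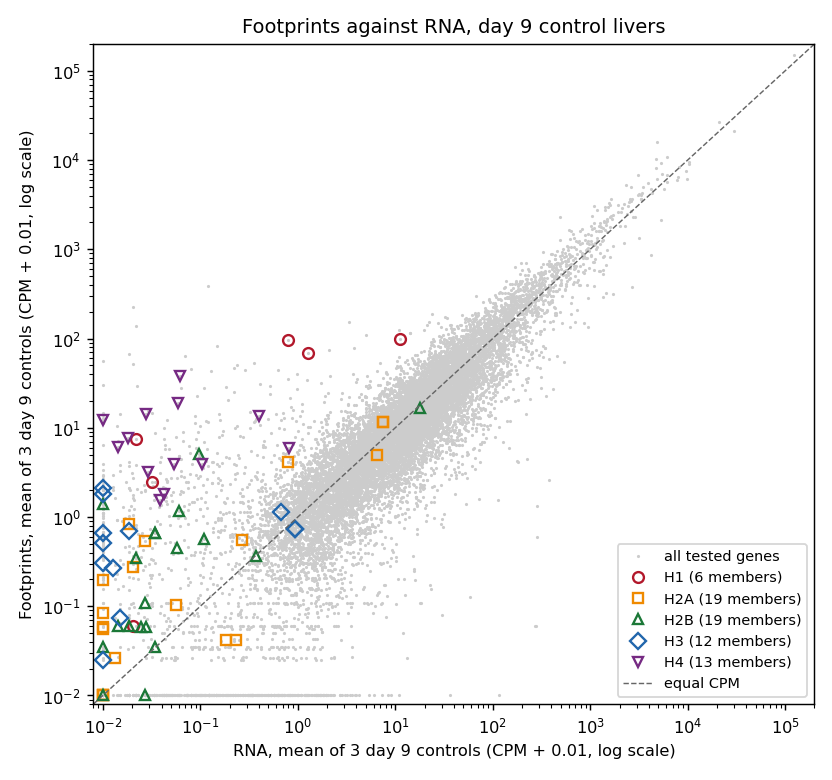
Mean footprint CPM against mean RNA CPM (each plus 0.01, log scales) over the 3 day 9 control animals; grey points are all tested genes, coloured symbols are the 69 members by histone type, and the dashed line is equal CPM. Most H4 members and 5 of 6 H1 members stand far above the line, and a few H2A, H2B and H3 members lie near it.

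Other RNAs measured the same way lay on both sides. Of 10 tested histone genes that are expressed outside S phase with poly(A) messages (H2afz, H3f3b, H1f0 and others), 3 were called higher in footprints and 4 lower (25.8% and 32.8% of all genes), with a median log2 difference of 0.04. H1f0, the replacement linker histone, differed by 0.19 ± 0.14, and H3f3b, a gene for H3.3, by 0.60 ± 0.16. All 9 tested noncoding RNAs without a poly(A) tail were called higher in footprints (25.8% of all genes), with a median of 7.83: Vaultrc5, a vault RNA, was at 138 CPM in footprints and 0.0117 CPM in RNA. These RNAs are not translated, and the 11 of them in the table summed to 260 to 315 CPM in the day 9 control footprint libraries and 1.08 to 2.61 CPM in the RNA libraries. The footprint libraries thus hold reads of untranslated RNAs, and their part in the histone counts was not tested.

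Day 13 control livers were set against day 9 control livers, with a different RNA kit at each day, so that day and RNA kit cannot be told apart. In RNA the members summed to 10.2 and 7.03 CPM at day 13, against 56.5 to 60.0 CPM at day 9, while in footprints they summed to 543 and 472 CPM against 449 to 496. The footprint ranges of the days overlapped and the RNA ranges did not. At day 13, 40 members had 0 counts in both control RNA libraries, against 17 with 0 counts in the 3 day 9 control RNA libraries. In footprints 10 had 0 counts at day 13 and 5 at day 9, in shallower libraries at day 13.

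The genes that had carried the day 9 RNA signal differed in what was left. Hist1h1c fell from 312, 426 and 373 RNA counts to 1 and 0 (log2 −8.62 ± 0.46, edgeR adjusted p = 5.6e-09), with footprints at 94.4, 101 and 98.3 CPM at day 9 and 104 and 91.3 CPM at day 13. Hist2h2aa1 fell to 0 and 2 RNA counts and Hist1h2al to 0 and 1.33, with footprints of 15.0 and 15.9 CPM and of 8.50 and 8.15 CPM. Hist1h4h had 0 RNA counts at day 13. Hist1h2bc kept 140 and 87.5 counts, 6.68 and 4.23 CPM, and made up most of what remained (log2 −1.70 ± 0.21, edgeR adjusted p = 6.8e-06). Hist1h4i kept 7.5 and 5 counts (log2 −1.36 ± 0.43, edgeR adjusted p = 0.011), a call lost without the second day 13 control library (−1.08, adjusted p = 0.069). In all, 16 of the 17 members tested in RNA were called lower (37.6% of all 16444 genes) and 1 higher (35.1%). Of the 17, 14 would have passed the filter through control libraries alone, and the day 9 libraries are among them, so the count is a description. The 1 higher member, Hist2h2bb (2.98 ± 1.05, edgeR adjusted p = 0.021), rested on 27.5 counts in the second control library with 0 in the first, and without that second library its estimate was −4.36.

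The RNA fall was not limited to members. Of 12 tested replication-independent histones, 9 were called lower and 3 higher, against 37.6% and 35.1% of all genes. Their median was −2.80, against −0.05 over all genes. In footprints, 2 of 39 members were called higher at day 13 in controls and 0 lower (5.48% and 4.88% of 12213 genes). They were Hist1h4a (5.43, 4.75 and 8.13 CPM to 15.9 and 15.0, log2 1.36 ± 0.31, edgeR adjusted p = 0.0075) and Hist1h4c (8.11, 11.6 and 16.9 to 28.1 and 23.2 CPM, 1.07 ± 0.29, adjusted p = 0.024). The Hist1h4c call was lost in edgeR without any 1 of 4 control libraries: log2 0.94 (adjusted p = 0.20) and 1.19 (adjusted p = 0.12) without day 13 replicates 1 and 2, and 0.85 (adjusted p = 0.060) and 1.03 (adjusted p = 0.069) without day 9 replicates 1 and 2. Without either day 13 control library no member was called (0 of the members in edgeR), and without day 9 replicate 1 or 2 it was 1. The pooled day 13 control ratio of footprints to RNA was above 16-fold in 30 of 38 members with a ratio (6.25% of 18118 genes). In edgeR's joint test 35 of 40 members were called higher in footprints and 0 lower at day 13 (36.4% and 32.5% of 14236 genes). The change of this difference from day 9 to day 13 was called for 12 members upward and 1 downward (32.5% and 22.7% of all genes). Of the H4 genes, 11 of 13 had 0 RNA counts in day 13 controls, and Hist1h4d, with 184 footprint counts, was at least 711-fold higher in footprints.

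**Figure D3:**
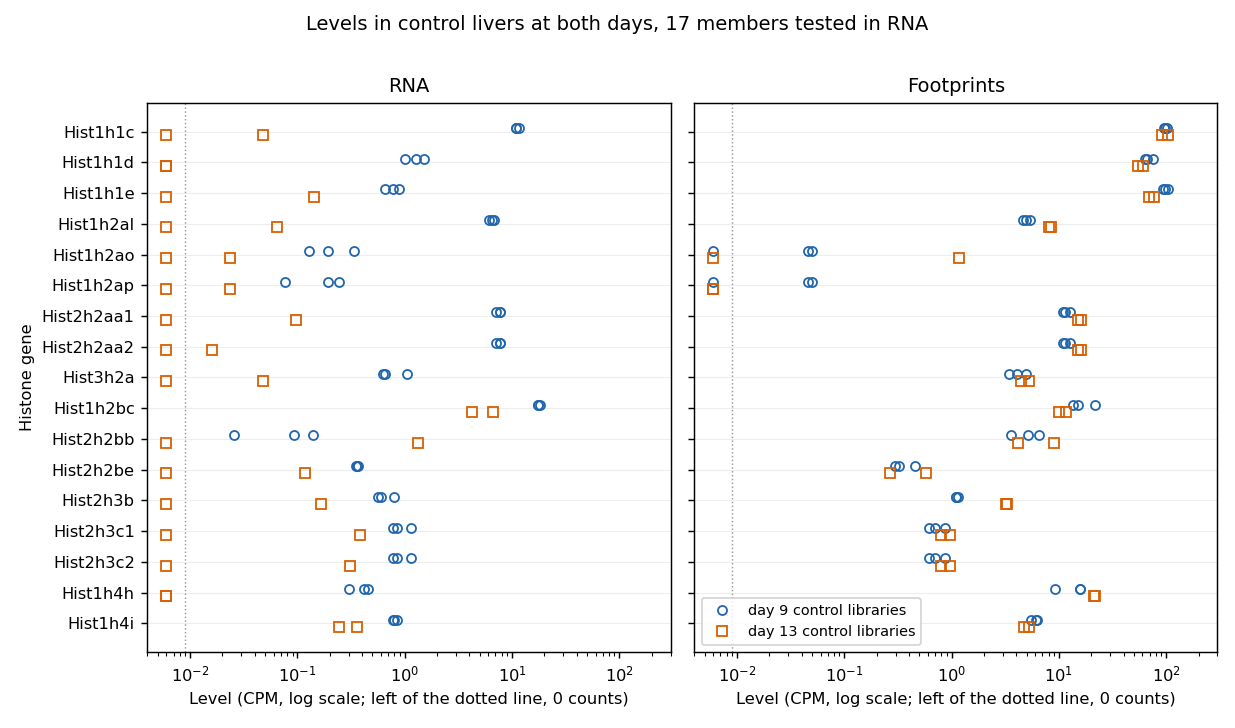
CPM (log scale) of the 17 members tested in RNA, in control livers, for RNA (left) and footprints (right); circles are the 3 day 9 libraries, squares the 2 day 13 libraries, and symbols left of the dotted line had 0 counts. In RNA the day 13 squares lie left of the day 9 circles for every gene but Hist2h2bb, and in footprints the days lie closer together for most genes.

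The next comparison asked how histone footprints changed after Eif3m siRNA. Over all 69 members they were higher in every Eif3m library. At day 9 the sum was 677, 557 and 557 CPM after Eif3m siRNA and 449, 486 and 496 in controls, 1.25-fold. At day 13 it was 853 and 924 CPM against 543 and 472, 1.75-fold. By type, at day 9 the H2B sum was 1.58-fold and the H4 sum 1.43-fold that of controls with no overlap, while the H1 (1.17-fold), H3 (1.53-fold) and H2A (0.913-fold) sums overlapped between siRNAs. At day 13 all 5 types had higher sums without overlap: H2B 2.26-fold, H4 1.78-fold, H1 1.77-fold, H2A 1.42-fold and H3 1.26-fold.

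In edgeR's test, 10 of 39 members rose in footprints at day 9 and 0 fell, against 6.84% of 12213 genes called higher and 7.90% called lower. At day 13, 10 of 39 rose and 0 fell, against 6.12% and 6.28%. The members' median log2 change was 0.65 at day 9 and 0.88 at day 13, against 0.02 at both days over all genes. Of the 39, 18 were higher in every Eif3m library than in every control library at day 9 (15.6% of all genes) and 29 at day 13 (28.3%), and 3 and 1 were lower in every one (16.3% and 27.1%). A filter on low counts can favour members that pass it through the Eif3m libraries, as 12 of the 39 did. Among the 27 that control libraries alone would have carried, 7 rose at day 9 and 9 at day 13, with medians of 0.39 and 0.81. Scaling by library totals alone, which moves the median of all genes from 0.02 to 0.25 at day 9 and to 0.34 at day 13, raised the members called to 18 and 21, and again none fell. The number of all genes called moved with the setting too. It was 1800 at day 9 and 1515 at day 13 in the main fit. Over the alternatives that left out no single library it was 1262 to 2742 and 1232 to 2355.

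Hist1h1b, Hist1h4d, Hist1h4i and Hist2h2bb were called at both days, and 16 members at either day. Hist1h4i, an H4 gene, lay at 6.13, 5.52 and 6.29 CPM in day 9 controls and 9.78, 11.8 and 11.1 after Eif3m siRNA, and at 5.21 and 4.70 against 16.3 and 17.4 CPM at day 13. The siRNA groups did not overlap at either day. The log2 change was 0.87 ± 0.19 (SE, edgeR adjusted p = 0.0033) at day 9 and 1.76 ± 0.31 (adjusted p = 0.00071) at day 13. Hist1h4d lay at 32.7, 40.9 and 39.2 against 70.6, 58.7 and 54.2 CPM at day 9, and at 58.8 and 44.0 against 106 and 90.5 CPM at day 13. Again no control library reached an Eif3m library, with changes of 0.70 ± 0.15 (edgeR adjusted p = 0.0030) and 0.92 ± 0.20 (adjusted p = 0.0036), the second lost without day 13 control replicate 2 (adjusted p = 0.090). Hist2h2bb, whose promoter above holds the octamer, lay at 6.58, 5.16 and 3.58 against 9.81, 11.1 and 10.4 CPM at day 9, and at 8.98 and 4.16 against 15.9 and 15.2 CPM at day 13. Its changes were 1.02 ± 0.23 (edgeR adjusted p = 0.0054) and 1.21 ± 0.36 (adjusted p = 0.030), and the day 13 call was lost without the second control or either Eif3m library, with adjusted p up to 0.34.

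At day 9, 2 of 5 tested H1 genes rose, Hist1h1a and Hist1h1b, which had the fewest footprint counts of the 5. Hist1h1a lay at 3.00, 2.25 and 2.09 CPM in controls and 7.88, 3.75 and 5.71 after Eif3m siRNA (log2 1.22 ± 0.30, edgeR adjusted p = 0.0090). Hist1h1b lay at 8.91, 6.17 and 7.54 against 18.4, 9.33 and 12.2 CPM (0.80 ± 0.23, edgeR adjusted p = 0.024). The Hist1h1b call was lost with DESeq2 and without control replicate 2 or 3 or Eif3m replicate 1, with adjusted p up to 0.12. Hist1h1c lay at 94.4, 101 and 98.3 CPM in day 9 controls and 141, 109 and 128 after Eif3m siRNA. The groups did not overlap, and the change missed the threshold (0.36 ± 0.12, edgeR adjusted p = 0.053). Hist1h1d and Hist1h1e overlapped between the siRNAs at day 9, at 0.13 ± 0.13 and 0.03 ± 0.14.

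At day 13, 4 of 5 rose: Hist1h1b, Hist1h1c, Hist1h1d and Hist1h1e. Hist1h1e lay at 76.7 and 69.7 CPM in controls and 135 and 144 CPM after Eif3m siRNA (0.93 ± 0.18, edgeR adjusted p = 0.0017). Hist1h1d went from 60.1 and 54.7 to 97.3 and 107 CPM (0.84 ± 0.18, edgeR adjusted p = 0.0033) and Hist1h1c from 104 and 91.3 to 160 and 152 CPM (0.67 ± 0.16, edgeR adjusted p = 0.0084). All of these groups were apart. The Hist1h1c and Hist1h1d calls were lost without the second control or the second Eif3m library (adjusted p up to 0.11 and 0.068), and the Hist1h1b call (1.29 ± 0.38, edgeR adjusted p = 0.028) without any 1 of the 4 day 13 libraries (up to 0.25). Hist1h1a, at 3.09 and 1.95 against 8.00 and 6.46 CPM, missed the threshold (1.46 ± 0.51, edgeR adjusted p = 0.069).

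Of the 13 H4 genes, 4 rose at each day. Beside Hist1h4d and Hist1h4i these were Hist1h4f (0.64 ± 0.21, edgeR adjusted p = 0.045) and Hist1h4j (0.85 ± 0.23, adjusted p = 0.015) at day 9, and Hist2h4 and Hist1h4k at day 13. Hist2h4 lay at 19.98 and 15.9 CPM in day 13 controls and at 39.3 and 48.5 CPM after Eif3m siRNA (1.33 ± 0.23, edgeR adjusted p = 0.00071). Hist1h4k rested on 1.5 and 2.5 control counts (2.29 ± 0.59, edgeR adjusted p = 0.014). The Hist1h4f call was lost with DESeq2, with day 9 fitted alone and without control replicates 1 or 2 or Eif3m replicates 2 or 3 (adjusted p up to 0.19), and the Hist1h4j call with DESeq2 and without control replicate 1 or Eif3m replicate 3 (up to 0.071). The Hist1h4k call was lost without either control or the second Eif3m library (up to 0.37). Hist4h4 overlapped at day 9 (−0.04 ± 0.19) and was higher without a call at day 13 (0.71 ± 0.27, edgeR adjusted p = 0.095). Hist1h4c and Hist1h4h were not called at either day.

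Of 8 tested H2B genes, 4 rose at day 9 and 2 at day 13. Beside Hist2h2bb they were Hist1h2bb (1.14 ± 0.37, edgeR adjusted p = 0.044) and the pair Hist1h2bq and Hist1h2br, which share reads and had 1.78 ± 0.46 each (adjusted p = 0.012), at day 9, and Hist1h2bg (1.54 ± 0.49, adjusted p = 0.046) at day 13. Hist1h2bb, Hist1h2bg, Hist1h2bq and Hist1h2br passed the filter only with the Eif3m libraries. The Hist1h2bb call was lost with DESeq2, with no filter, with day 9 fitted alone and without control or Eif3m replicates 1 or 2 (adjusted p up to 0.17), those of Hist1h2bq and Hist1h2br without control replicates 2 or 3 or Eif3m replicate 2 (up to 0.059), and that of Hist1h2bg with no filter, with values rounded down and without any 1 of the 4 day 13 libraries (up to 0.28). Hist1h2bc, with most of the H2B RNA, was not called (0.17 ± 0.20 at day 9 and 0.81 ± 0.33 at day 13, edgeR adjusted p = 0.63 and 0.12). None of 7 tested H2A genes and none of 6 tested H3 genes was called at either day. Hist2h2aa1 and Hist2h2aa2 stood lower at day 9, at 11.5, 12.7 and 10.8 against 9.47, 9.09 and 7.96 CPM with no overlap, and overlapped at day 13 (−0.40 ± 0.19 and 0.41 ± 0.26, edgeR adjusted p = 0.17 and 0.34). Hist1h3e had 0.79 ± 0.32 and 1.02 ± 0.55 (edgeR adjusted p = 0.11 and 0.28).

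**Figure D4:**
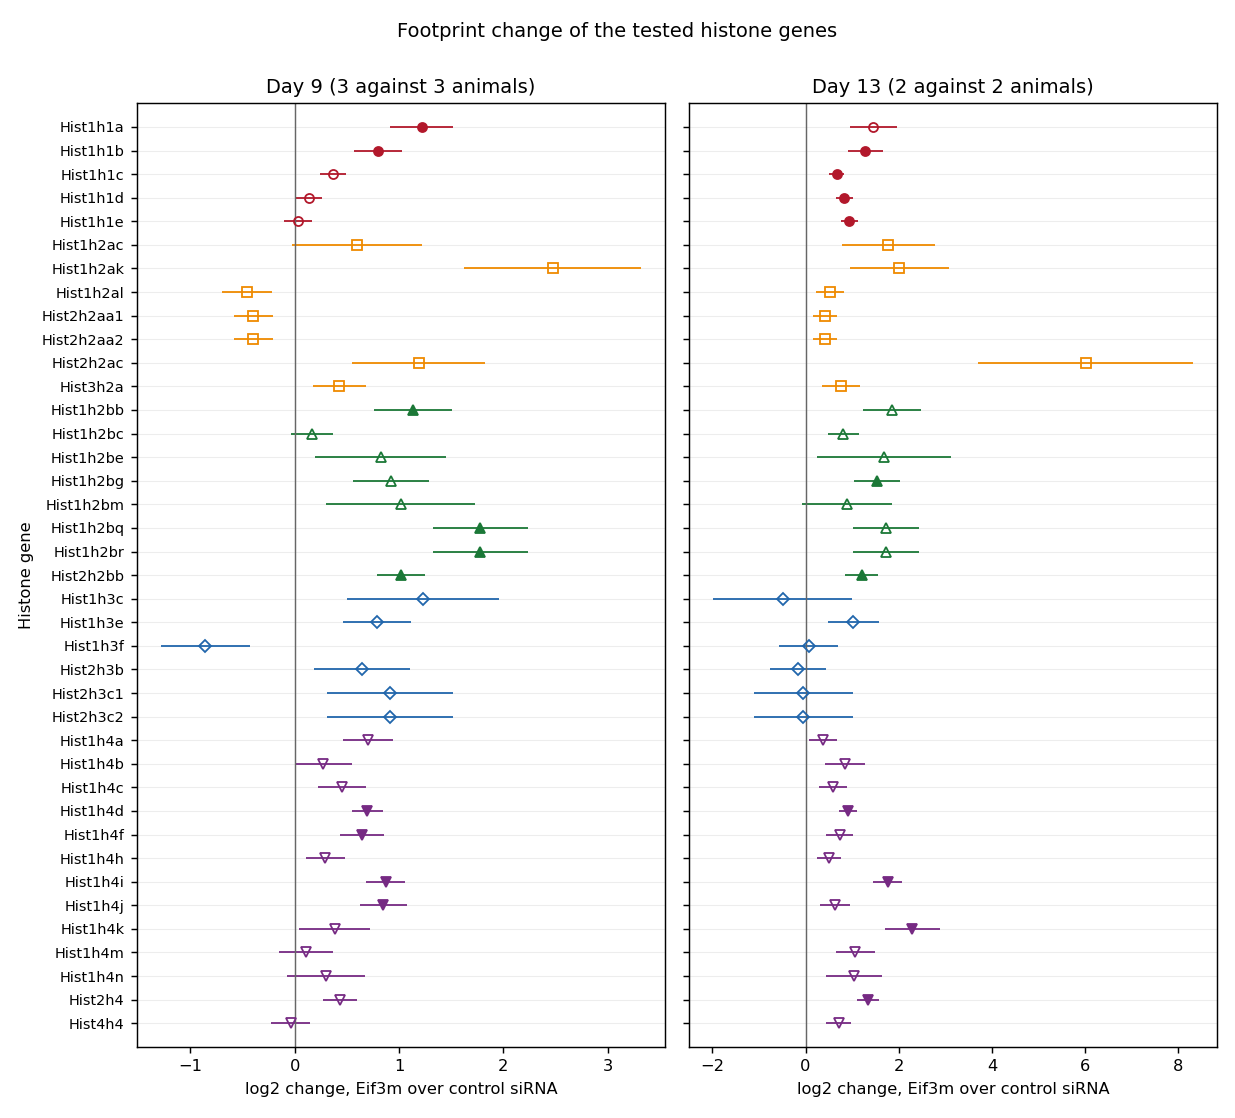
Log2 change of footprints after Eif3m siRNA (Eif3m over control, with SE bars) for the 39 members tested, at day 9 (left) and day 13 (right, wider axis); filled symbols passed an adjusted p of 0.05 and colours give the histone type. The 10 filled symbols of each panel lie right of 0, and none lies left of it.

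**Figure D5:**
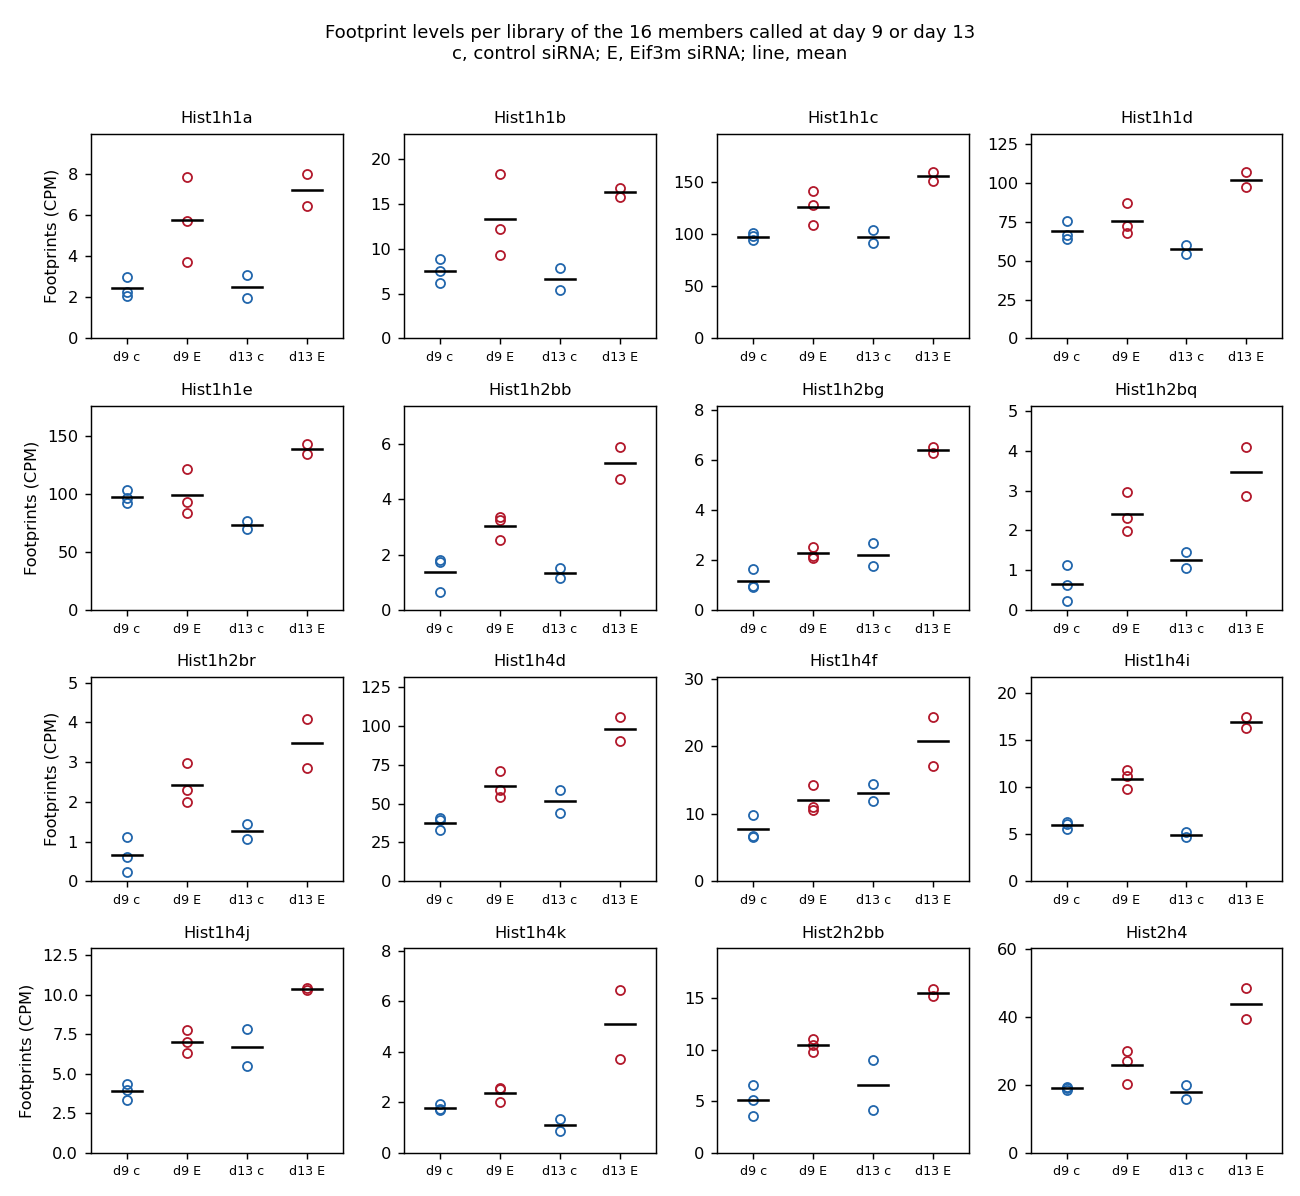
Footprint CPM (linear axes from 0, scaled per gene) in every library for the 16 members called at day 9 or day 13, with a short line at each group mean. Hist1h4d, Hist1h4i and Hist2h2bb show Eif3m libraries above all control libraries at both days.

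Whether the footprint change differed between the days was tested as an interaction. No member passed (edgeR, 0 of 39, and 0 by DESeq2), against 0.819% of all genes. At an unadjusted edgeR p under 0.05 stood 9 of the 39 members, against 1484 of all 12213 genes. Hist1h1e came nearest, 0.91 ± 0.23 higher on the log2 scale at day 13 (edgeR adjusted p = 0.069). The counts by day are therefore not shown to differ. They also changed with single libraries: without 1 library the members called ranged from 5 to 10 at day 9 and from 3 to 7 at day 13. At day 9 the lowest count, 5, was without control replicate 2. At day 13 it was 3 without control replicate 2, 4 without Eif3m replicate 2 and 7 without either of the other libraries. The calls of Hist1h1a, Hist1h4d, Hist1h4i and Hist2h2bb at day 9 and of Hist1h1e, Hist1h4i and Hist2h4 at day 13 were kept in every alternative that gave them an adjusted p. DESeq2 called 6 members at day 9 and 8 at day 13.

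In RNA the members summed to 74.7, 76.9 and 71.6 CPM after Eif3m siRNA at day 9, against 59.9, 56.5 and 60.0 CPM in controls (1.27-fold). The sums of H4 (2.51-fold), H3 (2.18-fold), H1 (1.70-fold) and H2B (1.13-fold) did not overlap between siRNAs, and that of H2A did (0.939-fold). By edgeR's test 3 of 17 members rose and 0 fell, against 2.48% and 3.19% of 16444 genes. Hist1h1c went from 10.9, 10.9 and 11.5 to 19.1, 20.9 and 15.4 CPM (0.73 ± 0.17, edgeR adjusted p = 0.026). Hist1h4i went from 0.7997, 0.855 and 0.781 to 1.86, 2.15 and 2.07 CPM (1.32 ± 0.29, adjusted p = 0.020), and Hist1h4h from 0.420, 0.453 and 0.303 to 1.13, 1.15 and 1.00 CPM (1.45 ± 0.38, adjusted p = 0.0495). No Eif3m library overlapped a control library for these 3. The count fell to 0 without any 1 of 5 libraries and to 1, Hist1h1c, without Eif3m replicate 3. In all, 9 of the 17 were higher in every Eif3m library (18.9% of all genes) and 2 were lower in every one (20.4%). Hist1h2ao, Hist1h2ap and Hist2h2bb passed the filter only with the Eif3m libraries, and Hist1h2ap is one of the 9. Among the 14 carried by control libraries alone, 3 rose and 0 fell, with a median of 0.77 and 11 above 0. Fitted on day 9 alone, 8 were called. All genes called were 932 in the main fit and 678 to 3316 over the alternatives that left out no single library.

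At day 13 the RNA sum was 11.9 and 12.1 CPM against 10.2 and 7.03 CPM (1.39-fold), and 1 of 17 members rose and 0 fell (6.09% and 9.87% of all genes). The call was Hist1h4i, on 7.5 and 5 control counts and 17 and 10 after Eif3m siRNA (2.05 ± 0.49, edgeR adjusted p = 0.014), and it was lost with day 13 fitted alone and without the second Eif3m library (adjusted p = 0.057 without that library). Hist1h4i was thus called at each day in each assay. The difference between the days passed for no member in RNA (edgeR, 0 of 17, and 0 by DESeq2), against 1.23% of all genes. At an unadjusted edgeR p under 0.05 stood 4 of the 17 members, against 2920 of all 16444 genes.

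Translational efficiency was taken as the footprint change minus the RNA change. The day 9 RNA was taken by its poly(A) tail, so for messages without a tail this difference need not measure translation. It passed for no member at day 9 (edgeR, 0 of 40, and 0 by DESeq2), and 0.0% of 14236 genes were called. At an unadjusted edgeR p under 0.05 stood 4 of the 40 members, against 692 of all 14236 genes. Those 4 were all lower after Eif3m siRNA: Hist1h1e −1.09 ± 0.29, Hist1h4h −1.15 ± 0.34, Hist1h1d −0.69 ± 0.23 and Hist1h4b −1.76 ± 0.79, with edgeR adjusted p of 0.52 or more. As sums, the H4 ratio of footprints to RNA was 77.3, 83.9 and 91.0 in day 9 controls and 54.3, 44.7 and 45.0 after Eif3m siRNA, and the H1 ratio 19.7, 21.0 and 21.7 against 16.1, 10.9 and 16.5. The groups did not overlap in either. The RNA sums rested on few genes. In day 9 controls Hist1h4i and Hist1h4h averaged 0.812 and 0.392 CPM of the 1.55 CPM of H4 RNA. After Eif3m siRNA they averaged 2.03 and 1.09 of 3.90 CPM. In control footprints they averaged 5.98 and 13.5 of 131 CPM. Hist1h1c averaged 11.1 of 13.2 CPM of H1 RNA in controls and 18.5 of 22.5 CPM after Eif3m siRNA. The H2B ratio was 1.45, 1.77 and 1.27 against 2.29, 2.30 and 1.73, higher on average and overlapping. The H3 ratio, with means of 3.72 and 2.48, the H2A ratio, with means of 1.54 and 1.49, and the ratio over all 69 members, at 7.49 to 8.61 and 7.24 to 9.07, overlapped between the siRNAs too. These sums are given as values, and with 3 animals against 3 an exact two-sided permutation test cannot go below p = 0.10. At day 13 no member passed either (edgeR, 0 of 40, and 0 by DESeq2), against 0.0211% of all genes, on RNA counts near 0 for most members. At an unadjusted edgeR p under 0.05 stood 2 of the 40 members at day 13, against 1424 of all 14236 genes. At that day the ratio over all 69 members was 53.5 and 67.0 in controls and 72.0 and 76.3 after Eif3m siRNA, and the H2B ratio 3.47 and 3.44 against 5.37 and 6.38, neither overlapping. The H4 ratio went the other way, also without overlap, at 487 and 687 in controls against 304 and 182. It rested on 8.5 and 5 RNA counts in controls and 17 and 10 after Eif3m siRNA. The H1 ratio overlapped, at 883 and 9226 against 887 and 1130. For H2A and H3, Eif3m RNA libraries with 0 counts left ratios undefined.

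Of 22 tested genes for 3′ end processing and decay of histone messages, 1 rose (Ncbp1, the large cap-binding subunit, 0.57 ± 0.15) and 1 fell (Zcchc6, a uridylyltransferase, −0.47 ± 0.13) in footprints at day 9, against 6.84% and 7.90% of all genes. At day 13, 2 rose (Lsm1, 1.11 ± 0.35, and Fip1l1, 0.68 ± 0.22) and 2 fell (Zcchc11, −1.21 ± 0.32, and Mif4gd, an SLBP partner, −0.81 ± 0.25), against 6.12% and 6.28%. The list medians were 0.03 and 0.08, beside 0.02 over all genes at both days. Slbp itself was at −0.06 ± 0.15 and 0.05 ± 0.21. Of 18 chaperone and import genes, Ipo4, an importin that carries histones, rose at both days (0.69 ± 0.14 and 1.17 ± 0.18) and Supt16, a FACT subunit, at day 13 (0.65 ± 0.20), and 0 fell, with medians of 0.12 and 0.16. In RNA at day 13, 7 of 19 chaperones rose, among them Npm1 (1.64 ± 0.17), and 2 fell, against 6.09% and 9.87% of all genes, with a median of 0.06 beside −0.16 over all genes. Of 8 tested replication-independent histones, 0 were called in footprints at either day.

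Among 42 tested genes of DNA replication and S phase, 4 rose in footprints at day 9 (Mcm10, 0.83 ± 0.13, Mki67, 1.97 ± 0.43, Top2a, 1.62 ± 0.40, and Lig1, 1.10 ± 0.29) and 2 fell (among them Tk1, −0.79 ± 0.19), with a median of 0.03. Over all genes 6.84% rose and 7.90% fell at that day. At day 13, 3 rose and 2 fell, against 6.12% and 6.28% of all genes, with a median of 0.02. Those that rose were Mcm10 (1.73 ± 0.20), Mcm7 (0.99 ± 0.28) and Prim1, which was at 0 counts in controls and a mean of 5.08 CPM after Eif3m siRNA. Tk1 again was among those that fell (−0.91 ± 0.28). The 8 markers of proliferating cells summed to 4.52 to 9.84 CPM in day 9 control footprints and 12.01 to 18.9 after Eif3m siRNA, with 2 of 5 tested called higher and none at 0. This list shares genes with the S phase list, and the 2 called are again Mki67 and Top2a. At day 13 the 8 markers summed to 8.77 to 17.8 CPM in controls and 9.48 to 13.3 CPM after Eif3m siRNA, with 0 of 5 called (edgeR). The groups were thus apart at day 9 and overlapped at day 13. In RNA the marker sums were 3.48 to 5.73 against 9.16 to 16.5 CPM at day 9 and 10.7 to 23.7 against 7.33 to 12.9 CPM at day 13. Markers of other liver cells went in several directions in footprints. At day 13 the 6 cholangiocyte markers summed to 34.8 to 38.8 CPM in controls and 59.4 to 77.9 after Eif3m siRNA, with 1 of 4 tested called higher and Cftr at 0 after Eif3m siRNA. The 8 Kupffer cell markers summed to 390 to 440 against 210 to 253 CPM (4 of 8 called lower), the 8 stellate cell markers to 1069 to 1123 against 701 to 883 CPM (3 of 8 lower) and the 7 erythroid markers to 1549 to 4844 against 656 to 1150 CPM (1 of 5 lower). At day 9 the stellate cell sums were apart the other way, at 711 to 769 against 812 to 919 CPM (2 of 8 called higher). The sums of the other 3 lists overlapped at day 9. There 3 of 8 Kupffer cell markers were called lower and 0 higher, and 0 of 4 cholangiocyte and 0 of 5 erythroid markers were called. The sums of sinusoidal endothelium, B and plasma cell and neutrophil markers overlapped at both days, as did those of T and NK cells. At day 9, 1 of 8 sinusoidal endothelium markers was called higher. Of 3 neutrophil markers tested at that day, 1 was called higher and 1 lower. The untranslated RNAs without a poly(A) tail summed to 260 to 315 CPM in day 9 control footprints and 318 to 485 CPM after Eif3m siRNA, and to 225 to 226 and 229 CPM at day 13. The part of these cells and RNAs in the histone changes was not tested.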

How the data were processed

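RNA-seq and ribosome footprint libraries of 10 mouse livers were analysed from a single table, in which the authors deposited expected counts for each gene symbol. Per the submitters' processing notes, cutadapt, Bowtie and Bowtie2 were used. The sources name no version, role, genome build or way of counting. Counts were rounded to whole numbers. Each assay had its own fit with edgeR 4.0.16 in R 4.3.3 (filterByExpr, TMM, robust quasi-likelihood F test, 4 groups each, Benjamini-Hochberg adjustment over all genes tested), and footprint over RNA and translational efficiency in 1 fit over the 20 libraries with TMM within each assay. A call is an adjusted p below 0.05, and each SE is the log2 change divided by the square root of its F. The same code was tested on simulated data. Ratios used pooled counts with a floor of 3 counts and 95% counting intervals. Depth, 1.64 to 39.02 times 1000000 counts per library, limits the low genes.

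The members and gene lists were chosen with earlier results of these data known. Members named were those called in an siRNA comparison, the 10 highest in footprints and in RNA, the highest of each type, and the highest and lowest ratio. Hist1h4a, Hist1h4b, Hist2h3b and Hist3h2a were named after their values were seen. Hist1h1t, Hist1h2ao, Hist1h2ap and Hist3h2bb-ps were also named outside this rule. Titles tie the RNA and footprint library of each animal, whose deviations from the group means correlated at 0.0941 to 0.373 over 10 animals. Alternatives were DESeq2 1.42.0, other scalings, filters, roundings and pseudocounts, a replicate block, each day alone and each library left out. Promoters came from RefSeq on GRCm38.p6. The values of 1 gene of the context lists are not reported here.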

Additional observations from a re-analysis of the deposited data

Results flagged for a closer look

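The footprint over RNA difference in controls differed between day 13 and day 9 for 13 of 40 members by the interaction test in edgeR. Of the 40, 12 were called upward and 1 downward, against 32.5% and 22.7% of all 14236 genes tested. The change of the difference is given on the log2 scale, with a positive value meaning a larger excess of footprints at day 13. It was 10.39 for Hist2h2aa2, 8.48 for Hist1h1c, 8.43 for Hist1h2al, 7.51 for Hist2h2aa1, 7.14 for Hist1h1d, 6.45 for Hist1h4h, 4.81 for Hist3h2a, 4.50 for Hist1h4j, 4.28 for Hist2h3b, 3.24 for Hist2h3c2, 2.88 for Hist1h1e, 1.09 for Hist1h2bc and −2.57 for Hist2h2bb. Values for genes with RNA counts at or near 0 at day 13 depend on the prior count and are no bounds. Day and RNA kit cannot be told apart. Groups of 2 or 3 libraries were too small to test a single library as an outlier. How the results moved when libraries were left out is given below.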

How the results depend on the processing

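No alternative of the siRNA comparisons in footprints called a member lower. The number of all genes called also moved with the setting, as given above for footprints at both days and RNA at day 9. With DESeq2 the members called were 2 (RNA, day 13) and 6 (footprints, day 9), and the member medians 0.038 (RNA, difference between days), −4.34 (RNA, day 13 over day 9 controls), −0.19 (translational efficiency, day 13), 5.59, 7.60 and 1.22 (footprint over RNA at day 9, day 13 and their difference). TMM over all 20 libraries gave 0.97, 7.48 and 1.601 for the efficiency at day 13, the ratio at day 13 and its difference. Each day fitted alone called 8 members in RNA at day 9 and 0 at day 13. Library totals alone gave 18 and 21 members called in footprints (medians 0.88 and 1.21), 1 for their difference, 2 in RNA at day 13, and medians of 0.94 (RNA, day 9), −0.94 (difference), −5.04 (control days), −0.12 and 1.16 (efficiency), and 5.20 and 7.49 (ratio). A mean of at least 5 CPM called 1, 0 and 2 in RNA (day 9, day 13, control days) and 14, 16 and 8 for the ratios, with medians of 0.47, 0.74, 0.27 and −5.12 in RNA, 0.46 and 0.38 in footprints (day 9, control days), −0.34 and 0.46 for efficiency and 6.43, 11.09 and 2.82 for the ratios. No filter beyond 1 count called 5 in RNA at day 9 and 1 for each difference between days, with medians of −0.91, −1.76, 0.0136, 0.0154, 0.99, 3.05, 5.24 and 1.09 for the RNA difference, RNA control days, footprint control days, efficiency at both days and the 3 ratios. The median log2 ratio with a pseudocount of 0.5 CPM was 2.05 and 2.37 at day 9 (control, Eif3m) and 2.72 and 3.74 at day 13. With 0.1 it was 3.50, 3.90, 4.53 and 5.71, and with 2 it was 0.92, 1.27, 1.29 and 2.15. Unrounded values gave −1.19, −1.46 and −3.41 in RNA (day 13, difference, control days) and 7.61 and 1.97 for the ratio at day 13 and its difference, and rounding down gave 0.97 (efficiency, day 13), 5.52, 7.42 and 1.24 (ratios). Same-numbered animals across siRNAs correlated at −0.109 to 0.219 and other-numbered ones at −0.164 to 0.208. With 2 or 3 animals per group such correlations cannot decide whether the numbers pair the animals. The replicate block called 1 member in RNA at day 9 (Hist1h4i, not Hist1h1c or Hist1h4h) and 8 and 9 in footprints (day 9, day 13), without Hist1h2bb (adjusted p = 0.073) and Hist1h4f (0.071) at day 9 and Hist1h2bg (0.083) at day 13, by edgeR, and gave −0.71, −5.32 and 0.67 for the RNA difference, RNA control days and efficiency at day 13. Leaving out 1 library gave counts of 0 to 1, 0 to 4, 0 to 3 and 14 to 17 in RNA (day 9, day 13, difference, control days), 5 to 10, 3 to 7, 0 to 2 and 0 to 3 in footprints, 0 for efficiency, and 30 to 33, 31 to 32 and 10 to 13 for the ratios. Its medians ran from 0.50 to 0.95, −0.84 to 0.00, −1.45 to −0.43 and −6.94 to −4.36 in RNA, 0.48 to 0.77, 0.73 to 0.90, 0.21 to 0.53 and 0.18 to 0.37 in footprints, −0.32 to −0.053 and 0.70 to 1.03 for efficiency, and 5.31 to 5.50, 7.95 to 8.23 and 1.34 to 1.87 for the ratios. Signs turned for Hist2h2bb without day 13 RNA control replicate 2 (6.27 for siRNA and −4.36 for day, against lowest and highest values of −2.08 and 3.99 without another library) and without day 13 footprint control replicate 1 (−0.27 for day, up to 0.85), Hist1h1e at day 9 without Eif3m replicate 1 (−0.14, up to 0.15), Hist2h2aa1 and Hist2h2aa2 at day 13 without Eif3m replicate 2 (−0.0081, up to 0.60) and Hist4h4 at day 9 with library totals (0.20). The cause was not tested.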
